A study of Mus musculus with 4 samples.

Results

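Immediate early genes and the heat shock genes induced when tissue is taken apart were examined as 10 genes, Fos, Fosb, Jun, Junb, Egr1, Atf3, Ier2, Zfp36, Hspa1a and Hspa1b, of 32285 genes listed. They were chosen by name, with earlier results of these data known. Their unique molecular identifiers (UMIs, one per captured transcript molecule) were counted by library and by cell class, to see whether a difference between libraries was shared by all classes. All 4 groups were wild-type FVB/NJ mice, 8 weeks old, whose digit was sampled at the middle phalanx (P2), where amputation ends in fibrosis and not in regrowth. One group was unamputated and the others were taken 12, 17 and 28 days post-amputation (dpa). Every group was 1 single-cell library of hand-dissected tissue that had been digested with trypsin and collagenase I, freed of red cells and sorted for live cells by propidium iodide. The digestion was common to all 4 libraries, so no library shows these genes before dissociation. The labels describe each library as a pool of male and female animals, with the number of animals not given.

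After filters, 10442 cells remained in the unamputated library and 6496, 7935 and 10173 at 12, 17 and 28 dpa, with median depths of 11636, 9543, 8511 and 6661 UMIs per cell. The sex transcripts went against the labels. The library labelled 12 dpa had Xist at 458.6 CPM (counts scaled to one common total per library or class) and 4 Y-linked genes together at 0.2285 CPM, whereas the other libraries had Xist at 0.0758 to 0.166 CPM and the Y-linked genes at 244.8 to 350.1 CPM. Sex and day therefore cannot be told apart in any 12 dpa value below. Pairs of libraries shared 19 to 87 cell barcodes, at most 0.57% of the smaller library. The 11 classes with at least 50 cells in every library are named from markers, and 74 of 86 marker genes were highest in their own class. Fibroblast-like cells were the weakest match, with 4 of 8 markers highest there, since Col1a1, Col1a2, Lum and Fbln1 were higher in another class. With 1 library per group no test was possible, so intervals below are exact 95% Poisson intervals of UMI counts or exact Clopper-Pearson intervals of cell shares, and cover counting error only.

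Immediate early genes are transcribed within minutes of a stimulus, without new protein synthesis, because the factors that switch them on already sit in the cell. Growth factors and stress act through mitogen-activated protein kinases on serum response factor and its partners, which bind the CArG box, and calcium and cyclic AMP act through CREB, which binds sites around the letters TGACG. Fos, Fosb, Jun, Junb and Atf3 encode leucine zipper proteins that pair with each other, Egr1 encodes a zinc finger factor, Ier2 a nuclear protein, and Zfp36 the protein tristetraprolin, which speeds the decay of AU-rich messenger RNAs. Hspa1a and Hspa1b encode nearly the same inducible Hsp70 chaperone and are switched on by heat shock factor 1, which binds repeats of GAA in alternating direction. In skin, muscle and brain, enzymatic dissociation at warm temperature is itself known to induce these genes, and wounding also induces them in the living tissue.

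The upstream sequences are shown for 5 members, both heat shock genes among them, to set these control elements beside the values. Each is the 250 bases before the RefSeq start on GRCm38.p6, written along the gene's strand. Capitals mark matches to TGACG or its reverse complement CGTCA in Fos and Fosb, to the CArG box in Zfp36 and to GAANNTTC in Hspa1a and Hspa1b.

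Fos, chr12:85473640-85473889, plus strand: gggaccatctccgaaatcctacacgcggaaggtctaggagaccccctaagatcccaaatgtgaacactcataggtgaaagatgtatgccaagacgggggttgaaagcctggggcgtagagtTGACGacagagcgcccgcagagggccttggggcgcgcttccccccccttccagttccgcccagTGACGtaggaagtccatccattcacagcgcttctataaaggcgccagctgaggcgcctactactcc

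Fosb, chr7:19310046-19310295, minus strand: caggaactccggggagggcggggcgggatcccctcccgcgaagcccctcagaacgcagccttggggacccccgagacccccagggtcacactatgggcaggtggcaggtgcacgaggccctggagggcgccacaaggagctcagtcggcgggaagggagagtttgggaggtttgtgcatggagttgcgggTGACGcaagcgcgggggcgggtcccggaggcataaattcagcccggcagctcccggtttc

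Zfp36, chr7:28379229-28379478, minus strand: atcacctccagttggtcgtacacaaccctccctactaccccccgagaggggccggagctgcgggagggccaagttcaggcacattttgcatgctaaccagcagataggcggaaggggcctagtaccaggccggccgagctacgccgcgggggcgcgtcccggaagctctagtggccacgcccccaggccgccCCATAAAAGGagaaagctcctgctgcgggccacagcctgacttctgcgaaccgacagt

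Hspa1a, chr17:34972157-34972406, minus strand: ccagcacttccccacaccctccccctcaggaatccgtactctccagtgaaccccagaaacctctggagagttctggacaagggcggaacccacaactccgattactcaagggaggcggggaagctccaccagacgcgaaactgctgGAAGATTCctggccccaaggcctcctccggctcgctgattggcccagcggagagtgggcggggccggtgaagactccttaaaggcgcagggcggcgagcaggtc

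Hspa1b, chr17:34959239-34959488, minus strand: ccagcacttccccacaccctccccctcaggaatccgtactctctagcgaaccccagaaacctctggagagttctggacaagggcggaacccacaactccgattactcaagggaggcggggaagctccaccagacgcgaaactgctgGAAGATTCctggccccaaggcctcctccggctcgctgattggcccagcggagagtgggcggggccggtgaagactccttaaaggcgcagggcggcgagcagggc

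Promoters were found for 8 of the 10 members. Fos held TGACG at 2 places, from bases -129 to -125 and from -66 to -62 before the start, and TATAAA from -33 to -28. Fosb had TGACG from -60 to -56, Junb from -106 to -102, and Atf3 in reverse complement from -7 to -3. Zfp36 held the only CArG box among the 8 windows, from -58 to -49. Egr1 and Ier2 had no window, and bases beyond the 250 were not searched. A site missing here may therefore lie farther upstream. Jun, Hspa1a and Hspa1b held GAANNTTC, the heat shock genes at the same place, from -104 to -97. Of 32851 promoter windows of the same length, 17.8% held TGACG on either strand, 1.47% a CArG box, 6.69% GAANNTTC and 12.4% TATAAA on either strand. Also searched for were TGACGTCA, which contains TGACG and occurred in 1.55% of windows, TGANTCA in 6.75% and TTCNNGAA in 7.17%, and none of the 8 windows held them. The members lie on 7 chromosomes, with Hspa1a at chr17:34969190-34972156 and Hspa1b at chr17:34956436-34959238 as neighbouring genes of a single exon on the minus strand of GRCm38. Their windows were identical at 247 of 250 bases.

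Taken over classes, the members were lower at 12 dpa and, in most classes, higher at 17 dpa than in the unamputated library. Ratios are log2 ratios of CPM within a class after adding 1 CPM. The median over the 10 members was taken in each class, and then the median over the 11 classes. The range beside it is the same median taken over the lower and over the upper counting bounds of the single ratios. At 12 dpa it was -0.61 (-0.78 to -0.40), against -0.15 for all genes of at least 5 CPM, and 10 of 11 classes were below 0. At 17 dpa it was 0.49 (0.27 to 0.62), against -0.06 for all genes, with 9 of 11 classes above 0. At 28 dpa it was 0.11 (-0.14 to 0.23), against -0.13 for all genes, with 7 classes above 0 and 4 below. At 12 dpa the median of all genes was itself below 0 in every class, from -0.26 to -0.07. With ratios centred on all genes, 8 of 11 classes were below 0 at 12 dpa. All 3 comparisons share the unamputated library.

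Counted pair by pair, 50 of the 110 member and class pairs (45.5%) were lower by at least 1.5-fold at 12 dpa, where 15.7% of all gene and class pairs were. Only 3 pairs (2.73%) were higher, below the 7.42% of all pairs. At 17 dpa 30 pairs (27.3%) were higher, against 6.72% of all pairs, and 17 (15.5%) were lower, against 9.7%. At 28 dpa 28 pairs (25.5%) were higher, against 9.71%, and 19 (17.3%) were lower, against 20.1%, so the lower share at 28 dpa was near the background. Subtracting the median of all genes in each class changed the split at 12 dpa to 34 lower and 5 higher pairs. The same centring gave 38 higher and 12 lower at 17 dpa, and 34 higher and 14 lower at 28 dpa. Centring also shifts the share of all pairs called, which was not computed, so the centred counts have no background. Of the 110 pairs, 73 had their lowest level at 12 dpa and 6 in the unamputated library, and 45 had their highest level at 17 dpa and 4 at 12 dpa. The same order was not counted for all genes, so these counts describe the members without a background.

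The balance on the later days depended on which classes or clusters were counted. In the 7 classes with at least 200 cells in every library, none of 70 pairs was higher at 12 dpa (4.81% of all gene and class pairs there) and 38 (54.3%) were lower (11.5%). At 17 dpa 9 (12.9%) were higher and 15 (21.4%) lower, against 4.15% and 5.59%, and at 28 dpa 11 (15.7%) were higher and 16 (22.9%) lower, against 8.08% and 15.8%. Counted by cluster, 5 of 190 pairs (2.63%) were higher and 85 (44.7%) lower at 12 dpa, against 8.57% and 16.5% of all gene and cluster pairs. The cluster counts were 44 (23.2%) higher and 43 (22.6%) lower at 17 dpa, against 7.23% and 10.6%, and 47 (24.7%) and 43 (22.6%) at 28 dpa, against 10.3% and 19.7%. The excess of lower pairs at 12 dpa was thus found in every one of these counts, whereas on the later days higher pairs did not outnumber lower ones in the larger classes.

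Called at 2-fold, 1 of the 110 pairs (0.909%) was higher and 16 (14.5%) lower at 12 dpa, against 2.5% and 5.13% of all pairs. At 17 dpa 12 (10.9%) were higher and 4 (3.64%) lower, against 2.61% and 3.25%, and at 28 dpa 11 (10.0%) and 8 (7.27%), against 3.8% and 8.04%. The lower shares on the later days were near the background at this fold.

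**Figure D1:**
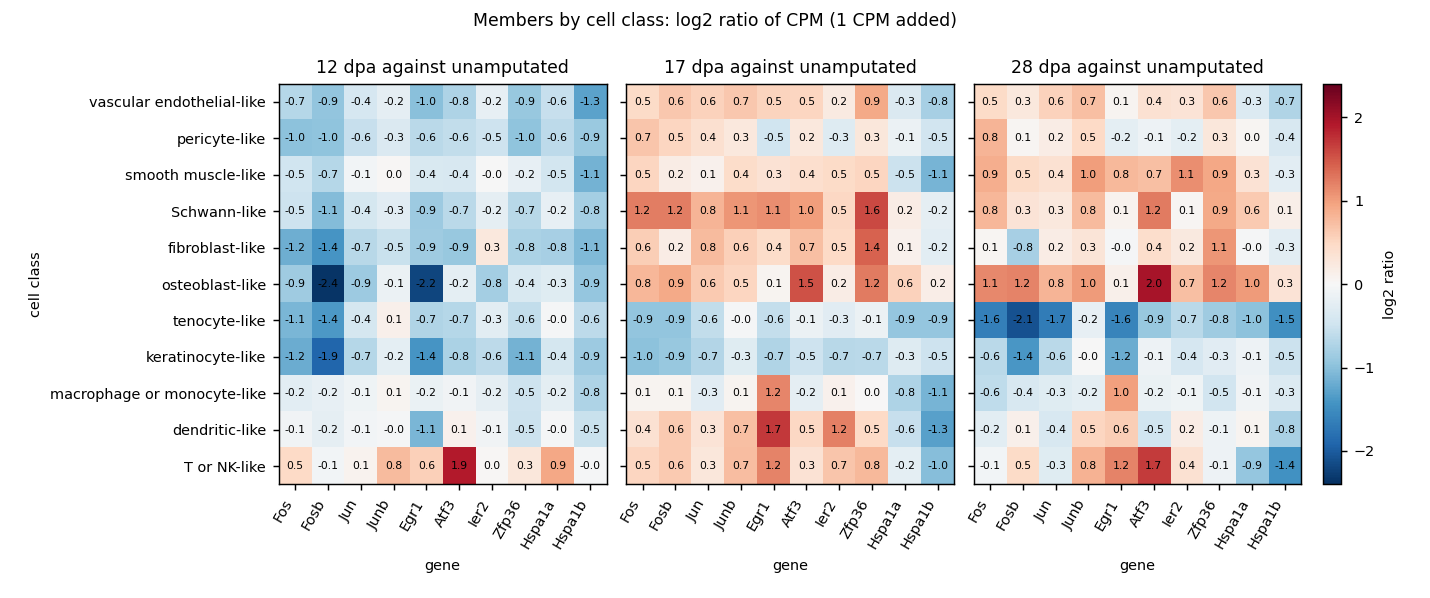
Each square is the log2 ratio of CPM of 1 member (columns) in 1 cell class (rows) to the unamputated library, for 12, 17 and 28 dpa from left to right, with red higher and blue lower. The 12 dpa panel is mostly blue in all classes but the T or NK-like, and the rows for keratinocyte-like and, as named at resolution 1, tenocyte-like cells are mostly blue in all 3 panels.

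Fos, a core subunit of the AP-1 transcription factor, was lowest at 12 dpa in 7 of 11 classes and highest at 17 dpa in 6. Over all cells it stood at 700.9 CPM in the unamputated library, then 375.3, 1106 and 862.2 at 12, 17 and 28 dpa. In smooth muscle-like cells, the class with the highest Fos in every library, the levels were 1755, 1257, 2525 and 3224 CPM in the same order, and their intervals did not overlap. Keratinocyte-like cells had the lowest Fos in each library, at 145.0, 62.4, 72.5 and 92.5 CPM, with the unamputated library highest. In Schwann-like cells Fos was 699.8, 495.7, 1631 and 1210 CPM, and in fibroblast-like cells 1048, 465.5, 1584 and 1083 CPM, so 12 dpa was lowest and 17 dpa highest in both. Tenocyte-like cells differed from these, with 534.7, 248.6, 276.3 and 170.6 CPM and all 3 amputated libraries below the unamputated one. That held for the class as named here, and with classes named at Leiden resolution 2 Fos there was 602.5 CPM unamputated and 239.1, 775.5 and 1465 CPM after amputation. Of the cells so named, 195 of 271 at 28 dpa and 207 of 671 unamputated were osteoblast-like as named here. In the tenocyte-like cells of a finer cluster led by C1qtnf3, Fos was 439.1, 252.8, 210.7 and 166.6 CPM. Fos was below the unamputated level in 10 of 11 classes at 12 dpa, the T or NK-like being the exception at a log2 ratio of 0.48, and above it in 9 of 11 at 17 dpa and 6 of 11 at 28 dpa.

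Fosb, a close relative of Fos, was lower at 12 dpa in all 11 classes, with log2 ratios from -2.35 in osteoblast-like to -0.06 in T or NK-like cells and a median of -0.97. Over all cells its levels were 119.4, 55.62, 160.9 and 111.7 CPM in the unamputated, 12, 17 and 28 dpa libraries. In keratinocyte-like cells it stood at 35.12 CPM unamputated and at 8.691, 18.26 and 12.74 CPM after amputation. In osteoblast-like cells it was 106.3, 20, 200.4 and 243.7 CPM, with 12 dpa lowest, but that class held only 56 cells at 12 dpa. At a finer clustering (Leiden resolution 2) 9 of those cells and 244 of the 451 unamputated ones fell in a cluster led by Ibsp and Bglap, genes of bone-forming cells, and 39 and 207 in a cluster led by Chad and Comp, so the class held different cells at 12 dpa. Fosb at 12 dpa rested on 8 UMIs in the first cluster (39.20 CPM, against 62.41 unamputated) and 6 in the second (13.17 CPM, against 174.8).

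Jun, the partner that lets Fos bind DNA, moved less. Over all cells it was at 392.2, 272.8, 561.8 and 438.2 CPM, and its median log2 ratio over classes was -0.42, 0.32 and 0.17 at 12, 17 and 28 dpa. Its lowest ratio was -1.68, in tenocyte-like cells at 28 dpa, where it stood at 79.59 CPM against 256.6 CPM unamputated. With classes named at resolution 2, which held a different mix of cells, it was 581.2 against 278.6 CPM, the opposite direction. In the tenocyte-like cells of the finer cluster led by C1qtnf3, Jun was 103.5 against 224.2 CPM, lower as in the class named here. Junb, which pairs with Fos proteins and often restrains Jun, was the member whose 12 dpa difference was least shared, with 7 of 11 classes below 0 and no class lower by 1.5-fold. Among the 11 compared classes its highest level was in T or NK-like cells, at 1129 CPM (1075 to 1186) unamputated, then 1907 (1795 to 2025), 1892 (1773 to 2016) and 2005 (1815 to 2209) at 12, 17 and 28 dpa. There the 3 amputated libraries overlapped each other and all lay above the unamputated one. In smooth muscle-like cells Junb was 798.8 CPM unamputated and 810.8 at 12 dpa, with overlapping intervals, and then 1081 and 1594 CPM at 17 and 28 dpa.

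Egr1, a zinc finger factor induced through serum response factor, had a median log2 ratio of -0.86 at 12 dpa, with 10 of 11 classes below 0. Its levels over all cells were 201.6, 109.7, 313.0 and 251.6 CPM. In macrophage or monocyte-like cells Egr1 was at 42.71 CPM unamputated, then 38.22, 98.20 and 85.61 at 12, 17 and 28 dpa. It was thus above the unamputated level on the later days, while the median log2 ratio of the 10 members in that class was 0.03 at 17 dpa and -0.27 at 28 dpa. Of that class, 1609 of 2063 cells at 28 dpa but 73 of 1957 unamputated ones came from 1 cluster. In dendritic-like cells Egr1 was 66.28, 30.57, 216.3 and 100.6 CPM, highest at 17 dpa, though at resolution 2 the 28 dpa level was 54.10 against 59.58 CPM unamputated. In osteoblast-like cells it was 280.2 CPM unamputated and 60.01 (44.25 to 79.57) at 12 dpa, with 294.3 and 304.1 CPM later. The class value at 17 dpa joined 267.3 CPM against 181.7 unamputated in the cluster led by Ibsp and 338.7 against 434.0 in the cluster led by Chad, so the level moved in opposite directions in them.

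Atf3, a stress-induced zipper protein that in nerve marks injured Schwann cells and neurons, was at 318.9 CPM in unamputated Schwann-like cells, then 203.4, 637.6 and 755.7 at 12, 17 and 28 dpa. The last 2 libraries were above the unamputated one and the 12 dpa library below it. In osteoblast-like cells it was at 28.21 CPM unamputated, 23.75 CPM (14.30 to 37.10) at 12 dpa, and 82.71 and 113.9 CPM later. Of its 19 UMIs at 12 dpa, 18 came from the 9 cells of the cluster led by Ibsp (88.21 CPM, against 35.10 unamputated) and 1 from the 39 cells of the cluster led by Chad (2.19 CPM, against 17.45). The log2 ratio of 1.98 at 28 dpa was the highest of any member in that comparison. In T or NK-like cells Atf3 had 50 UMIs unamputated and 74 at 12 dpa, or 34.58 CPM (25.67 to 45.59) and 132.2 CPM (103.8 to 165.9). That log2 ratio of 1.9 was 1 of the 3 pairs higher by 1.5-fold at 12 dpa, and the other 2 were Junb and Hspa1a in the same class. Ier2, an early nuclear protein, varied least between classes, by 2.23-fold in the unamputated library, against 5.29- to 17.3-fold for the other members. It stood over all cells at 106.4, 78.09, 129.3 and 120.9 CPM.

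Zfp36, the RNA decay factor, was highest at 17 dpa in 8 of 11 classes and lowest at 12 dpa in 9 of 11. In Schwann-like cells it stood at 163.1 CPM unamputated, then 102.8, 494.1 and 304.6 at 12, 17 and 28 dpa. In fibroblast-like cells the values were 142.2, 83.65, 382.5 and 298.0 CPM, again with 12 dpa lowest and 17 dpa highest. Vascular endothelial-like cells gave 267.6, 142.1, 500.6 and 416.4 CPM, ordered as in the fibroblast-like cells. In keratinocyte-like cells Zfp36 was at 31.24, 13.58, 19.60 and 25.70 CPM, and there the unamputated library was highest.

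**Figure D2:**
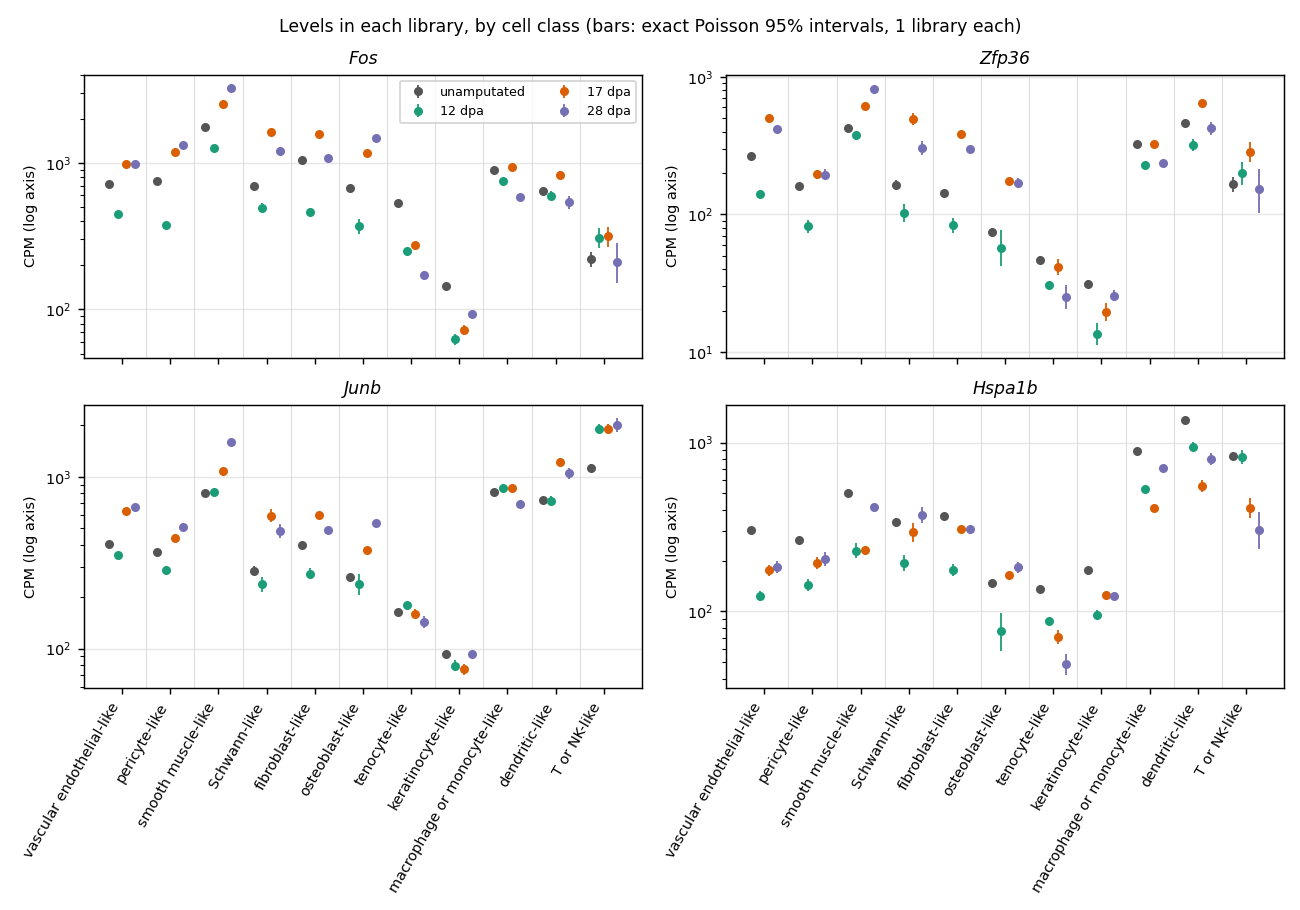
CPM (log axis) of Fos, Zfp36, Junb and Hspa1b in each cell class, 1 point per library with exact 95% Poisson intervals. Fos and Zfp36 are lowest at 12 dpa (green) in most classes, Junb is lowest in the unamputated library (grey) in T or NK-like cells, and Hspa1b is highest in the unamputated library in 9 of 11 classes.

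The heat shock genes parted from the others. Hspa1b was below the unamputated level in 11, 10 and 9 of 11 classes at 12, 17 and 28 dpa, with median log2 ratios of -0.87, -0.79 and -0.38. Over all cells it was at 384.2, 189.5, 255.1 and 328.5 CPM. In dendritic-like cells, where it was highest, it was at 1368, 946.0, 554.1 and 798.0 CPM, with the unamputated library above the rest. In smooth muscle-like cells, where Fos at 17 and 28 dpa exceeded the unamputated level, Hspa1b was 501.6 CPM unamputated and 228.8, 229.7 and 418.1 CPM after amputation. Hspa1a differed less, with median log2 ratios of -0.29, -0.31 and -0.03, and in T or NK-like cells it was 620.4 CPM unamputated and 1172 CPM at 12 dpa. Across 44 class and library units, each gene centred in its class on the log2 scale, the correlation with the mean of the other members was 0.482 for Hspa1b and 0.572 for Hspa1a, and 0.735 to 0.938 for the rest, Fos being highest. The units share 4 libraries, so these values describe likeness and are not tested.

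The balance of the heat shock pair also differed by library. Hspa1b had 1.08 UMIs per Hspa1a UMI over all unamputated cells, and 0.717, 0.831 and 0.866 at 12, 17 and 28 dpa. The ratio was below its unamputated value in 11 of 11 classes in each amputated library, with class ratios of 0.904 to 2.23 unamputated and 0.551 to 1.66, 0.642 to 1.97 and 0.605 to 1.71 in the amputated libraries by day. Keratinocyte-like cells had the highest ratio in all 4 libraries. The coding sequences were identical at 1918 of 1926 aligned bases (99.6%), whereas the 3′ untranslated parts, where the reads of this chemistry mostly fall, matched at 391 of 640 aligned bases (61.1%). How the counting treated reads that fit both genes is not given in the sources used here, so the split of UMIs between them is uncertain.

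**Figure D3:**
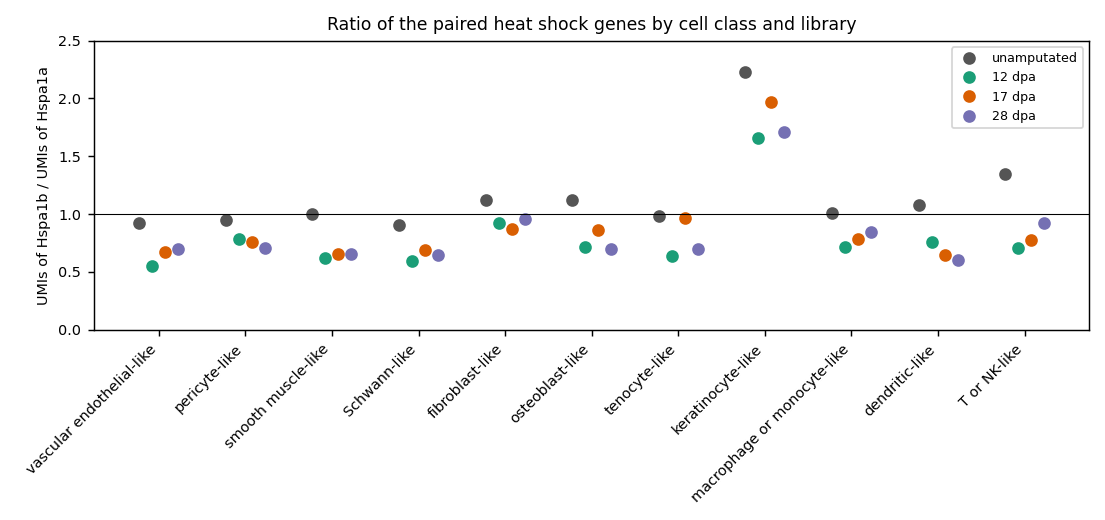
UMIs of Hspa1b divided by UMIs of Hspa1a in each cell class, 1 point per library. The unamputated library (grey) is the highest point in every class.

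By class, the 12 dpa difference was broad and the later ones were divided. At 12 dpa the class medians ran from -0.84 in osteoblast-like to 0.38 in T or NK-like cells, with fibroblast-like cells at -0.83, keratinocyte-like at -0.81, vascular endothelial-like at -0.72, pericyte-like at -0.63, tenocyte-like at -0.61, Schwann-like at -0.57 and smooth muscle-like at -0.38. Macrophage or monocyte-like cells at -0.21 and dendritic-like cells at -0.08 lay close to their own medians of all genes, -0.23 and -0.26, and the 8 non-immune classes were all at -0.38 or below. The osteoblast-like value joined unlike cells: 8 of 10 members were above the unamputated level in the 9 cells of the cluster led by Ibsp, and all 10 below it in the 39 cells of the cluster led by Chad. At 17 dpa the highest median was 1.03 in Schwann-like cells, where 7 of 10 members were higher by 1.5-fold and none lower, against 11.6% of all genes higher and 14.5% lower in that class. Keratinocyte-like and tenocyte-like cells were at -0.66 and -0.58, and all 10 members were below the unamputated level in both. The tenocyte-like direction at 17 and 28 dpa depended on which cells were given that name.

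At 28 dpa osteoblast-like cells had all 10 members above the unamputated level, 8 of them by 1.5-fold (against 7.53% of all genes in that class), with a median of 1.03, and smooth muscle-like cells had 9 above with a median of 0.75. Tenocyte-like cells had all 10 below, 9 of them by 1.5-fold (against 20.8% of all genes in that class), with a median of -1.23, and keratinocyte-like cells had all 10 below with a median of -0.45. Of those 389 tenocyte-like cells, 279 lay in a finer cluster, led by Comp, that the naming rule left unnamed, with 3 markers of another class and 2 of its own among its leading genes. With classes named at Leiden resolution 2, an alternative added after the data were seen, the tenocyte-like medians were 0.36 and 1.17 at 17 and 28 dpa, the opposite sign, and -0.70 at 12 dpa. That naming also changed the mix of cells. Of the cells so named, 195 of 271 at 28 dpa and 207 of 671 unamputated were osteoblast-like at resolution 1. The osteoblast-like median at 12 dpa also turned, from -0.84 to 0.31, on 11 cells, under the minimum of 50. No median of the other 9 classes changed sign. In the osteoblast-like, smooth muscle-like, tenocyte-like and keratinocyte-like classes of resolution 1 the median of all genes at 28 dpa was between -0.23 and -0.12. As named at resolution 1, classes at 28 dpa thus lay on either side of a median over classes near 0. At resolution 2 that median was 0.34.

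**Figure D4:**
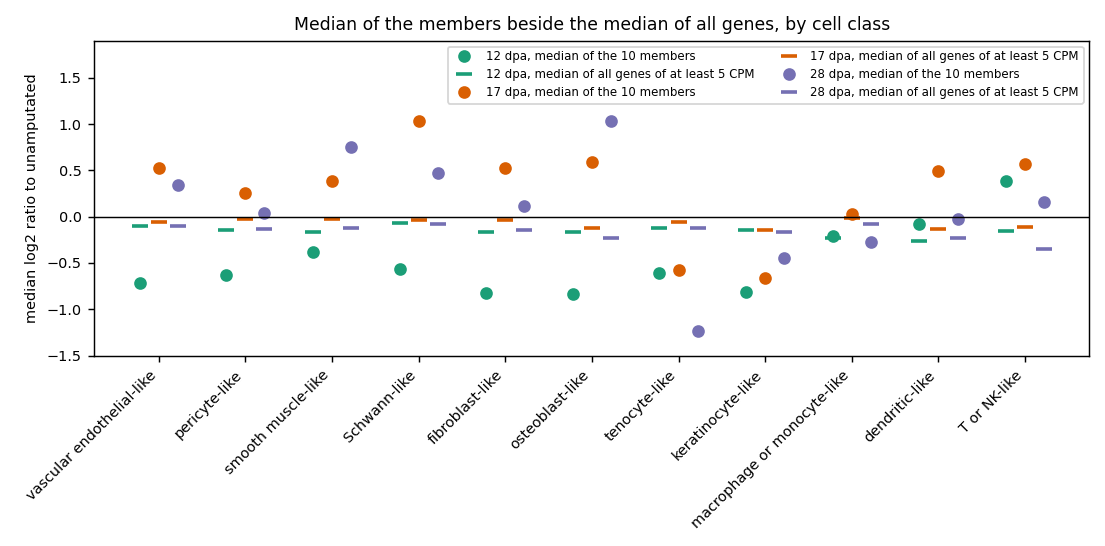
Median log2 ratio to the unamputated library of the 10 members (dots) and of all genes of at least 5 CPM (dashes) in each cell class, coloured by library. At 12 dpa the dots lie below the dashes in 8 of 11 classes. At 28 dpa they run from -1.23 in tenocyte-like to 1.03 in osteoblast-like cells. The tenocyte-like value turned to 1.17 with classes named at resolution 2, over a different mix of cells.

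Within classes of several clusters the direction was not always shared. Of 3 fibroblast-like clusters, cluster 10 held 473, 105, 1051 and 927 cells in the unamputated, 12, 17 and 28 dpa libraries and had member medians of -0.47, 0.71 and 1.28 at 12, 17 and 28 dpa. Cluster 25, which held 140, 99, 333 and 1158 cells, had medians of -0.70, -0.52 and -0.47. The fibroblast-like value at 28 dpa, 0.11, thus joined a cluster above the unamputated level and a larger one below it. All 4 keratinocyte-like clusters were below 0 in all 3 comparisons, and the medians ran from -1.35 to -0.03. Of the smooth muscle-like clusters, cluster 12 was at -0.78 and cluster 15 at 0.37 at 12 dpa, and both were above 0 later. The tenocyte-like class held different cells in different libraries. Split at the finer clustering, a choice added after the data were seen, 386, 985, 185 and 61 of its cells fell in a cluster led by C1qtnf3, Col11a1, Mest and Scx, and 255, 572, 52 and 9 in a cluster led by Kif26b, Prss35 and Crabp1. A cluster led by Comp, Cilp2 and Hapln1 held 7 unamputated cells but 279 of the 389 at 28 dpa. Within the cluster led by C1qtnf3 the member medians were -0.20, -0.45 and -1.10 at 12, 17 and 28 dpa, and within the cluster led by Kif26b -0.86 and -0.64 at 12 and 17 dpa. The lower level was thus also found within the first of these clusters on both later days and within the second at 17 dpa. The second held 9 cells at 28 dpa, with 7 members below the unamputated level and 3 above. It was itself named fibroblast-like at resolution 2. The osteoblast-like cells led by Ibsp had medians of 0.97 and 1.23 at 17 and 28 dpa. Those led by Chad had 0.20 and 0.84, and their cluster, with 412 of the 797 osteoblast-like cells at 17 dpa, was named tenocyte-like at resolution 2, so the names of both classes change with the clustering.

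Macrophage or monocyte-like cells came mostly from clusters 0 and 2 in the unamputated library (993 and 679 of 1957 cells) and from cluster 1 at 28 dpa (1609 of 2063 cells). Cluster 0 alone had medians of -0.17, -0.37 and -0.58, and cluster 2 had -0.15, 0.23 and 0.33. Cluster 1 held 73, 32, 504 and 1609 cells, under the minimum of 50 at 12 dpa, and its medians were not taken. The class values on the later days thus compare different mixes of clusters.

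Cluster 16 could not be named. Its leading genes were Ccrl2, Cxcl2, Il1b, Slc7a11, Gm43661, Acod1, Hcar2, Ccl3, Hdc and Mirt1, and it held 532, 280, 241 and 182 cells. Junb was at 4868, 3829, 3492 and 4955 CPM there and Zfp36 at 2076, 1276, 1152 and 1411 CPM, above every compared class in the same library. The median of the members in it was -0.79, -0.54 and 0.04 by day, so at 17 dpa it was on the side of the keratinocyte-like cells.

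The number of members carried by a cell was then counted. Each cell was thinned to 2000 UMIs, which left out 146, 121, 178 and 377 shallower cells. At that depth 23.5% (22.7 to 24.4) of unamputated cells carried UMIs of 5 or more members, then 14.5% (13.6 to 15.4), 31.2% (30.1 to 32.3) and 26.1% (25.2 to 27.0) at 12, 17 and 28 dpa. Cells with none made up 17.1%, 25.2%, 14.1% and 17.9%. These shares are pooled over classes, whose mix differed by library. With every library weighted to the unamputated mix of classes, an alternative added after the data were seen, the share with 5 or more was 16.7%, 26.3% and 23.7% at 12, 17 and 28 dpa, so at 28 dpa it lay within the counting interval of the unamputated share. The share with none was then 23.9%, 17.1% and 18.6%, so at 17 dpa it equalled the unamputated 17.1%. In Schwann-like cells the share with 5 or more was 22.7%, 12.3%, 43.9% and 31.4%, and in tenocyte-like cells 9.20%, 4.95%, 3.99% and 1.80%. For tenocyte-like cells as named at resolution 2 it was 11.5%, 3.83%, 16.3% and 24.8%, so there too the later direction turned with the naming. The mix of cells differed as well. Of the cells so named, 195 of 271 at 28 dpa and 207 of 671 unamputated were osteoblast-like at resolution 1. In keratinocyte-like cells the share with 5 or more was 1.93% to 2.62% in all 4 libraries, with overlapping intervals, while the share with none was 31.4% unamputated and 49.5%, 37.9% and 42.2% after amputation. Smooth muscle-like and dendritic-like cells had the most, 34.0% to 51.7% over both.

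For single members at the same depth, Fos was found in 64.7%, 55.5%, 69.5% and 70.0% of smooth muscle-like cells and in 16.4%, 7.40%, 9.33% and 10.8% of keratinocyte-like cells. Without thinning, Fos was in 84.1%, 68.1%, 78.7% and 76.0% of smooth muscle-like cells, at median depths of 10432, 7389, 6220 and 4200 UMIs, so the deepest library had the highest share and 12 dpa, the second deepest, the lowest. RNA free in the suspension adds UMIs to cells that do not make a transcript. As a gauge, the keratin gene Krt14 was found in 23.6%, 30%, 19.3% and 32.9% of vascular endothelial-like cells, at median depths of 10834, 7176, 6295 and 4320 UMIs, and the haemoglobin gene Hba-a1 in 0.609%, 0.645%, 0.289% and 0.305% of cells of the 11 classes. Krt14 was thus most widespread at 28 and 12 dpa and least at 17 dpa, and its part in the member values was not tested. The members have no class known to lack them, so low shares such as those of keratinocyte-like cells were not read as expression.

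**Figure D5:**
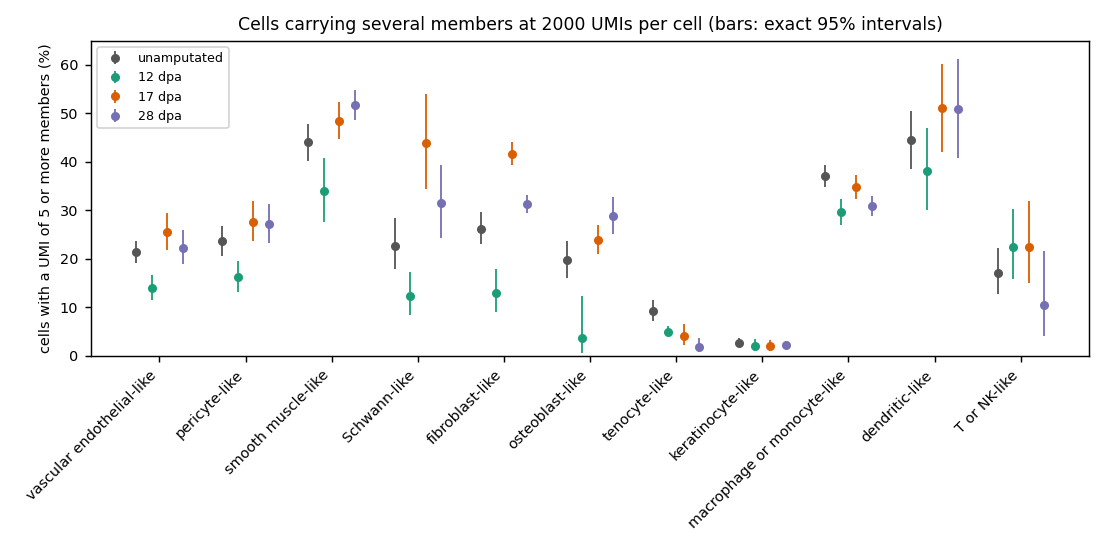
Share of cells with UMIs of at least 5 of the 10 members after thinning each cell to 2000 UMIs, by cell class, 1 point per library with exact 95% intervals. The 12 dpa library (green) is lowest in most non-immune classes. Tenocyte-like cells go from 9.20% unamputated to 1.80% at 28 dpa, where naming at resolution 2 gave 11.5% and 24.8% over a different mix of cells.

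Depth and the mitochondrial share moved with the libraries. Cells were deepest in the unamputated library in 11 of 11 classes and shallowest at 28 dpa in 11 of 11. The median mitochondrial share was highest in the unamputated library in 10 of 11 classes and lowest at 17 dpa in 10 of 11. The thinned ratios gave medians over classes of -0.45, 0.31 and 0.21 at 12, 17 and 28 dpa, on the same side of 0 as at full depth. The part of the mitochondrial share in the result was not tested.

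Other genes of the same response were read from lists, also chosen with earlier results of these data known. Of 20 other early transcription factors, all 20 had a median over classes below 0 at 12 dpa, 15 were above 0 at 17 dpa and 15 at 28 dpa, and 13 on both days, with list medians of -0.42, 0.14 and 0.26. Klf6, a zinc finger factor, was lower by 1.5-fold at 12 dpa in 9 of 11 classes, with a median of -0.70, and was the gene of these lists that met the rule for naming in that comparison. Of 17 feedback inhibitors of signalling or RNA decay, such as the phosphatase gene Dusp1, 13 were below 0 at 12 dpa and 11 above 0 at 17 dpa and at 28 dpa, with list medians of -0.33, 0.08 and 0.03. Of 7 secreted and cytoskeletal early genes, 6, 7 and 6 were below 0 at 12, 17 and 28 dpa, so this list did not share the higher level of the members at 17 dpa. Ccn1, which encodes a matrix protein, was chosen after its values were seen, and it was lower by 1.5-fold in 8 of the 8 classes in which it reached 5 CPM at 12 dpa.

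Other heat shock chaperones did not follow Hspa1b. Of 14 such genes, 8, 7 and 9 were above 0 at 12, 17 and 28 dpa, with list medians of 0.02, -0.02 and 0.12. Of the 9 genes of the endoplasmic reticulum stress list that reached 5 CPM, 7 were below 0 at 12 dpa and 6 above 0 at 28 dpa, with list medians of -0.08, 0.00 and 0.26. Ddit3, which encodes the stress factor CHOP, was higher by 1.5-fold at 28 dpa in 9 of 11 classes, with a median of 0.79. Its symbol stands for 2 gene identifiers in the files, and the values are those of ENSMUSG00000025408. Of 13 upstream regulators, among them Srf, Creb1, the kinase gene Mapk8 and Hsf1, 11, 11 and 12 were below 0 at 12, 17 and 28 dpa, with list medians of -0.27, -0.12 and -0.31, against -0.15, -0.06 and -0.13 for all genes.

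The 10 genes most like the mean of the members over the 44 class and library units, among 7389 genes of at least 20 CPM, were Btg2, Dusp1, Csrnp1, Tiparp, Irf1, Nfkbiz, Nr4a1, Tnfaip3, Zfp36l1 and Ifrd1. Their correlations ran from 0.853 for Btg2 to 0.772 for Ifrd1. Of these, 7 were on the lists of other early genes, and Tiparp, Nfkbiz and Ifrd1 were on none. Averaged over classes, Btg2 was at 255.8 CPM unamputated, then 231.2, 367.3 and 336.4 at 12, 17 and 28 dpa. Zfp36l1, a relative of Zfp36, was at 443.7, 312.5, 422.4 and 388.4 CPM, so it was lowest at 12 dpa but not above the unamputated level later.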

How the data were processed

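The authors deposited whole-number counts of UMIs per gene and cell barcode for 4 libraries of 10x Chromium 3′ v3 chemistry, processed with Cell Ranger 7.1.0 on mm10, per the submitters' processing notes; how cells were called is not given in the sources used here. Barcodes needed 500 genes, 1000 UMIs and a mitochondrial share of 10% or less, and the highest Scrublet scores were removed at 0.8% per 1000 barcodes (7.05% to 12.8% of barcodes). Libraries were clustered jointly in scanpy 1.11.5 (2000 variable genes, 30 components, 15 neighbours, Leiden resolution 1) without the members, the other listed genes, sex-linked or mitochondrial genes. Clusters were named from markers of 21 classes when 3 or more markers were each detected in at least 25% of cells, unless another class had more markers among the 10 leading genes. Of 29 clusters, 2 stayed unnamed. B-like, neutrophil-like and lymphatic endothelial-like cells were too few in a library to be compared.

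UMIs were summed per class and library and expressed as CPM. Ratios used a pseudocount of 1 CPM and genes of at least 5 CPM in either library, and a pair was called at 1.5-fold. Genes of other lists were named when called in the same direction in at least 75% of the 11 classes, and all 10 members were named. The procedure was tested on simulated data. The members and lists were chosen with earlier results of these data known. Positions are from GENCODE M21 (GRCm38) and promoters from RefSeq (GRCm38.p6). Alternatives covered cell filters, doublets, clustering, naming, scaling, thinning, pseudocounts, minimum levels, class sizes, members and the fold called. Naming single classes at resolution 2, splitting tenocyte-like and osteoblast-like cells by its clusters, and weighting classes to the unamputated mix, were added after the data were seen. Levels of different genes are not compared, since capture differs by gene.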

Additional observations from a re-analysis of the deposited data

Results flagged for a closer look

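In 4 classes the members moved together while other classes moved the opposite way under the same comparison, and the differences between classes were not tested. At 17 dpa all 10 members were above the unamputated level in osteoblast-like cells (median log2 ratio 0.59), and all 10 were below it in keratinocyte-like (-0.66) and tenocyte-like cells (-0.58). At 28 dpa all 10 were above it in Schwann-like (0.47) and osteoblast-like cells (1.03), and all 10 were below it in keratinocyte-like (-0.45) and tenocyte-like cells (-1.23). With classes named at Leiden resolution 2 the tenocyte-like medians were 0.36 and 1.17 at 17 and 28 dpa, so the opposition of that class depended on the naming. Of the cells so named, 195 of 271 at 28 dpa and 207 of 671 unamputated were osteoblast-like at resolution 1. Within the tenocyte-like cells led by C1qtnf3 the medians stayed below 0, at -0.45 and -1.10. These comparisons share 1 unamputated library, so its level in a class enters both days.

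Xist, which lies outside the measurement of the members, was at 458.6 CPM in the library labelled 12 dpa, whereas the label describes a pool of both sexes.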

How the results depend on the processing

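Each comparison rests on 1 library per group, and the 12 dpa library also differed in sex. Depth limits the smallest classes, such as Atf3 in osteoblast-like cells at 12 dpa, which rested on 19 UMIs. No paired analysis was possible because each group held 1 library. Over 21 alternatives the median over classes kept its sign at 12 dpa (-0.72 to -0.40, the last at Leiden resolution 2) and at 17 dpa (0.23 to 0.58). At 17 dpa it was 0.26 with classes of at least 200 cells and 0.23 with clusters in place of classes. At 28 dpa it was near 0 and ran from -0.01 with the stricter cell filter to 0.38 without doublet removal, with 0.30 under the looser filter and with each cell named alone, 0.34 at resolution 2 and 0.23 after centring on all genes. The cause was not tested. With classes named at resolution 2 the tenocyte-like medians turned from -0.58 to 0.36 at 17 dpa and from -1.23 to 1.17 at 28 dpa, and the osteoblast-like one at 12 dpa from -0.84 to 0.31 on 11 cells. No median of the other 9 classes changed sign. There the tenocyte-like class gained a cluster led by Chad and lost those led by Comp and Kif26b. Within the tenocyte-like cells led by C1qtnf3 the medians stayed below 0, at -0.45 and -1.10 at 17 and 28 dpa.

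Pair counts depended more on the choices. Called at 2-fold, 1 of 110 pairs (0.909%) was higher and 16 (14.5%) lower at 12 dpa, against 2.5% and 5.13% of all pairs. At 17 dpa they were 12 (10.9%) and 4 (3.64%), against 2.61% and 3.25%. At 28 dpa they were 11 (10.0%) and 8 (7.27%), against 3.8% and 8.04%. With clusters in place of classes, a choice added after the data were seen that gives more pairs, 5 were higher and 85 lower at 12 dpa, 44 and 43 at 17 dpa, and 47 and 43 at 28 dpa, so the excess of higher pairs at 17 dpa was lost, with 8 of 19 clusters below 0. With classes of at least 200 cells, 0 were higher and 38 lower at 12 dpa, 9 and 15 at 17 dpa, and 11 and 16 at 28 dpa, so more were lower than higher on the later days, as was also so for all genes there. The shares of all pairs by cluster and in the larger classes are given in the Results. For the settings that follow they were not computed, and the number of pairs differs between settings. The stricter filter kept 9 classes and 90 pairs. Of these, 0 were higher at 12 dpa, 7 (7.78%) lower at 17 dpa and 15 (16.7%) higher at 28 dpa. The 3 of 110 higher pairs (2.73%) at 12 dpa became 7 of 120 (5.83%) without doublet removal and 8 of 110 (7.27%) at resolution 2. They were 8 of 120 (6.67%) with clusters named by their best class. With each cell named alone they were 9 of 130 (6.92%), and after centring 5 of 110 (4.55%). Without the T or NK-like class 0 of 100 pairs were higher at 12 dpa. Without Hspa1a and Hspa1b 9 of 88 pairs (10.2%) were lower at 17 dpa. Each class was also left out in turn. The lowest count of lower pairs at 17 dpa was then 11 of 100, without the keratinocyte-like class. At 28 dpa it was 10 of 100, without the tenocyte-like class.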
